A study of Mus musculus with 6 samples.

Results

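The 10 Kruppel-like factors Klf2, Klf3, Klf4, Klf5, Klf6, Klf9, Klf10, Klf11, Klf13 and Klf15 were followed in mouse liver. They were taken by symbol from a list of names, and all 10 were present among the 22068 gene symbols measured. Polyadenylated RNA was sequenced from livers of C57BL/6 mice aged 6 weeks, in 3 libraries of a liver double knockout of the Hippo pathway kinases Mst1 and Mst2 (dKO) and 3 control libraries. Both groups were null for Mst1 (Mst1-/-) and carried loxP-flanked Mst2 alleles (Mst2 fl/fl), so the controls were Mst1-null livers and not wild type. The dKO mice carried alb-Cre (alb-Cre+/+ on the label), a Cre recombinase driven by the albumin promoter of the hepatocyte lineage, and the controls did not (alb-Cre-/-). Cells that do not use the albumin promoter keep Mst2 in this model. Nothing in the labels ties the numbered replicates to different mice. The p-values therefore describe the scatter among these 6 libraries only, and that scatter may be technical.

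Kruppel-like factors are zinc finger proteins that bind GC-rich and CACCC sequences, together with the related SP factors. Their amino-terminal parts differ and recruit activators such as p300, or repressors such as CtBP and Sin3A. In liver, KLF6 and KLF10 are known from injury and TGF-beta responses, KLF9 from glucocorticoid and thyroid hormone responses, and KLF15 from the control of amino acid breakdown and gluconeogenesis. KLF2 and KLF4 are best known in endothelium, and KLF5 in epithelial progenitors.

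Promoter windows were available for 8 of the 10 members, without Klf5 and Klf10. They run from 250 bases before to 50 bases after the annotated start in RefSeq on GRCm38.p6 and were matched by symbol, since the expression values are per symbol and their build is mm9. The sequences of 4 members are given because Klf6 and Klf11 were the members that rose in dKO livers, while Klf15 and Klf9 had the highest levels in control livers. Capitals mark matches to the E-box CACGTG, the site of clock and MYC family proteins, and to the GC box GGGCGG on either strand, a site of SP and Kruppel-like factors. Overlapping matches join into 1 run of capitals in Klf11.

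The Klf6 window lay at chr13:5861239-5861538 on the + strand, that of Klf11 at chr12:24651121-24651420 (+), that of Klf15 at chr6:90462326-90462625 (+) and that of Klf9 at chr19:23140976-23141275 (+).
Klf6: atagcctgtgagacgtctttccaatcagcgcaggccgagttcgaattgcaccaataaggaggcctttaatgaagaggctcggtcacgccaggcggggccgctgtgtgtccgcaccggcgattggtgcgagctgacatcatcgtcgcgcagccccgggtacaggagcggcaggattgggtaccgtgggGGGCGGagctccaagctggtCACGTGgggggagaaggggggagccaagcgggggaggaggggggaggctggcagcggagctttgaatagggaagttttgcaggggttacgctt
Klf11: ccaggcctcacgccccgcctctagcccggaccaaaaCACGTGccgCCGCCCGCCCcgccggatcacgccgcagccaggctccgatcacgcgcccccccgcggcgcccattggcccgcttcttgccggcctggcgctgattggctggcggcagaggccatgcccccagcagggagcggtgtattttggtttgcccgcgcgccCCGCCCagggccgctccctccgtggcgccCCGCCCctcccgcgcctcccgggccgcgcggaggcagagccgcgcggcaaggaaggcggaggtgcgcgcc
Klf15: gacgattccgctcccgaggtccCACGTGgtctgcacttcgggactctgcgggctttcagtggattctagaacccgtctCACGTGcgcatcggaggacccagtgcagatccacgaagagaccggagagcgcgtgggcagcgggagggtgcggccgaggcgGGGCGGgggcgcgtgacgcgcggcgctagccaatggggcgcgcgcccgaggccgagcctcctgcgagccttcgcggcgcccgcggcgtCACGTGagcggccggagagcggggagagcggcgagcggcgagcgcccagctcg
Klf9: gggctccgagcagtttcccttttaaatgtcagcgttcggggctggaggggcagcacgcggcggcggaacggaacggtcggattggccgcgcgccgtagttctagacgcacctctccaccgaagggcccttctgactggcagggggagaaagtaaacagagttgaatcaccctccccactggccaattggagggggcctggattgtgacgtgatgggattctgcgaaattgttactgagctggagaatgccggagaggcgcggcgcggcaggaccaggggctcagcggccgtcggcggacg

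The E-box was found in 4 of the 8 windows (Klf4, Klf6, Klf11 and Klf15), against 7.15% of 32851 promoter windows of 27025 genes. Klf15 held 3 matches, which begin at positions -228, -172 and -3 from the start (position 0 is the first transcribed base). At least 3 matches occurred in 29 of all windows, or 0.0883%. The GC box was found in 7 of 8 windows, all but Klf9, against 35.7% of all windows. GC content was 63.0% for Klf6, 77.7% for Klf11, 73.3% for Klf15 and 63.3% for Klf9, against a median of 52.7% over all windows. All 8 members lay between 63.0 and 77.7%. The windows compared were not matched for GC content, so the motif shares do not separate a trait of the family from its GC content.

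Among the other motifs searched on both strands, CACCC was found in 5 of 8 members (57.5% of all windows), CCAAT in 5 (37.4%) and TGACG, the core of the cAMP response element, in 6 (20.8%). The AP-1 motif TGANTCA was found in Klf9 alone among the members (7.81% of all windows). GGAATG, the core of the site of TEAD factors, was in 0 of 8 members and 14.7% of all windows. These matches describe letters in the windows and not binding, and both a called and an uncalled member had the E-box.

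**Figure D1:**
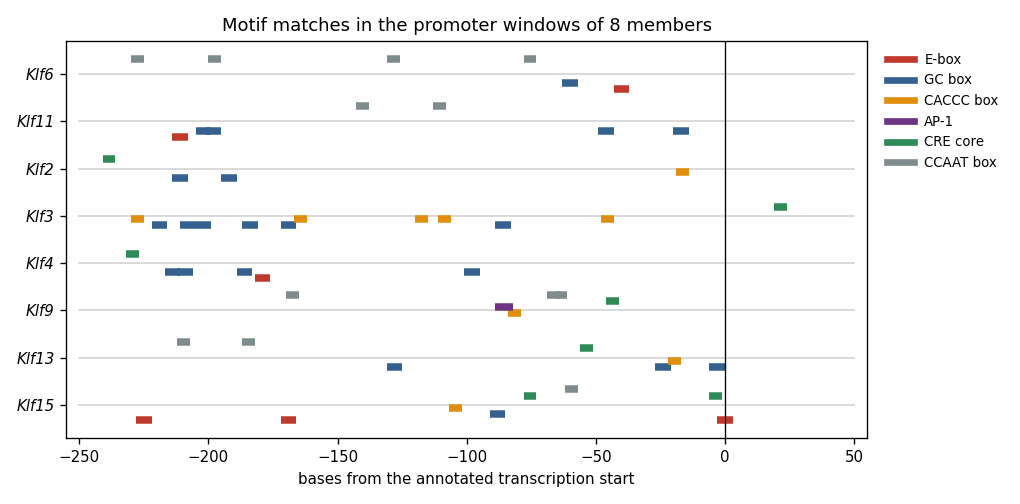
Positions of motif matches in the promoter windows of 8 members, with the distance in bases from the annotated transcription start on the x axis and 1 row per gene. Coloured bars are matches on either strand. Klf15 has 3 E-box matches, Klf6 and Klf11 have 1 each, and Klf9 has neither an E-box nor a GC box. The bars labelled CRE core are matches to TGACG.

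Values were read as RPKM, sequencing reads scaled to transcript length and library size, which can be compared between genes per length. The libraries summed to 324034 to 352678 RPKM in dKO and 364571 to 368246 RPKM in control livers, and the spacing of low values gave estimated depths of 20.7 to 24.55 M reads in dKO and 16.9 to 24.8 M reads in control libraries. A gene was tested where its mean was at least 1 RPKM (11062 genes), with limma on log2(RPKM + 1) and an adjusted p under 0.05. This scale understates the change of low genes, and log2 changes are dKO minus control. Stk3, the gene of Mst2, had 5.13, 4.25 and 5.32 RPKM in dKO livers and 6.00, 5.42 and 5.20 RPKM in control livers. Stk4, the gene of Mst1, had 5.84, 4.93 and 5.76 RPKM in dKO livers and 5.50, 4.69 and 4.66 RPKM in control livers. Neither was called (limma adjusted p = 0.424 for Stk3 and 0.487 for Stk4), though after quantile normalization Stk3 was called lower (log2 change -0.44 against -0.15, limma adjusted p = 0.0475). The ranges of both overlapped, and a value per gene does not resolve the deleted exons, so it does not check the labels.

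Of the 10 members, 8 passed the filter and were tested. Klf6 and Klf11 rose in dKO livers and 0 members fell; at an unadjusted p under 0.05 there were 3 higher and 0 lower. At that unadjusted threshold limma had 3647 of all 11062 tested genes higher and 543 lower. This is the background for every unadjusted count given here. After adjustment the background was also high, as limma called 17.8% of the tested genes higher (1965) and 2.17% lower (240). Dropping control replicate 1 left 763 higher calls, dropping control replicate 3 left 957, and dropping dKO replicate 3 or dKO replicate 1 left 988 or 1153. The groups did not overlap for 4 of the 8 tested members (Klf2, Klf6, Klf11 and Klf15), against 45.1% of all tested genes (4986). Their median log2 change was 0.29, against 0.23 over all tested genes, and both the count and the median lay near the background. Median-ratio scaling of the libraries moved the all-gene median to 0.02 and that of the members to 0.08. It also took the share of calls that were higher to 63.9%, against 89.1% before.

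Klf6 encodes an activator that is induced early after liver injury. It had 14.7, 15.8 and 25.0 RPKM in dKO livers and 5.73, 8.80 and 5.99 RPKM in control livers. Every dKO library lay above every control library, and dKO replicate 3 was the highest. The means were 18.5 ± 5.65 RPKM in dKO and 6.84 ± 1.70 RPKM in control livers (SD, n = 3 each), 2.71-fold higher in dKO. In the fit the log2 change was 1.30 ± 0.22 (SE; 95% interval 0.79 to 1.81; limma adjusted p = 0.00832). Klf6 was called in all 12 alternatives, with limma adjusted p between 0.00691 and 0.04 and log2 changes between 1.07 and 1.47.

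Klf11 encodes a TGF-beta-inducible repressor that recruits Sin3A and is the closest relative of Klf10. It had 5.26, 4.68 and 6.69 RPKM in dKO livers and 1.62, 2.93 and 2.18 RPKM in control livers. The groups did not overlap, and the lowest control library was replicate 1. The means were 5.54 ± 1.04 RPKM in dKO and 2.24 ± 0.654 RPKM in control livers (SD, n = 3 each), 2.47-fold higher in dKO. This gave a log2 change of 1.02 ± 0.19 (SE; 95% interval 0.59 to 1.45; limma adjusted p = 0.00974). Klf11 was called in all 12 alternatives, with limma adjusted p between 0.0075 and 0.0394 and log2 changes between 0.70 and 1.29.

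**Figure D2:**
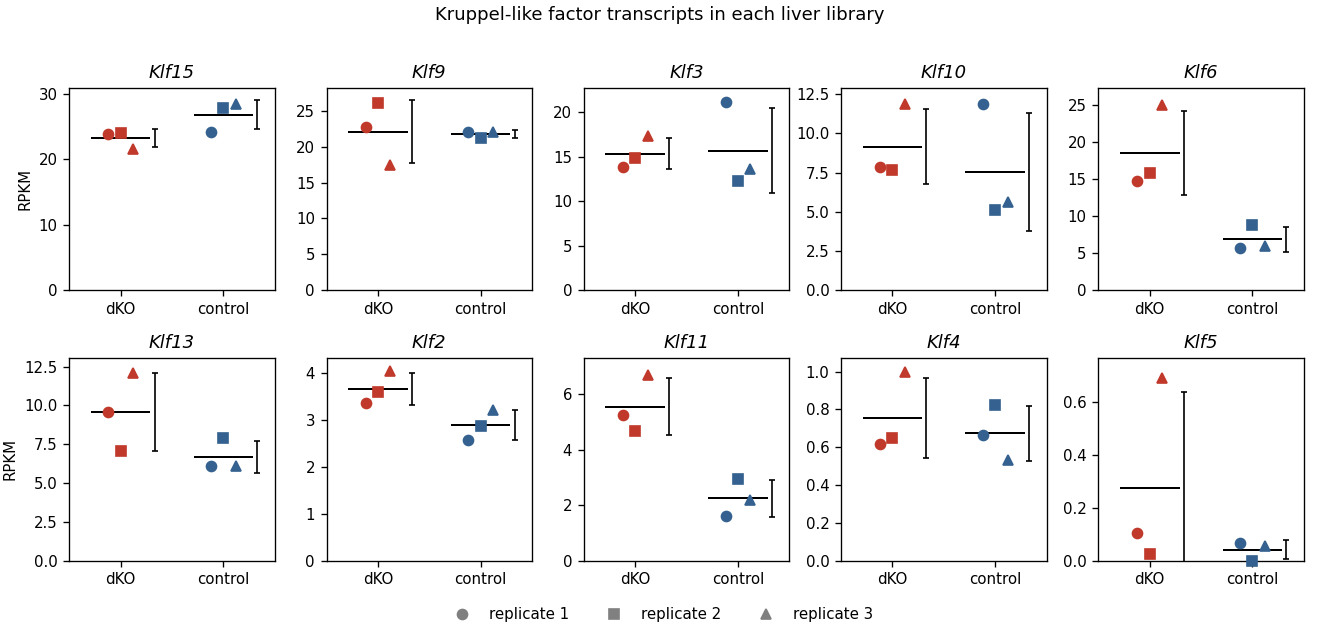
RPKM of each Kruppel-like factor by library, dKO on the left and control on the right, with its own linear axis from 0 for each gene. Points are libraries, horizontal lines are means and bars are SD (n = 3), cut off at 0 for Klf5. Klf6 and Klf11 lie higher in every dKO library, and control replicate 1 stands above the other controls for Klf3 and Klf10.

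Klf10, also known as the TGF-beta-inducible early gene, did not pass the test. It had 7.87, 7.67 and 11.9 RPKM in dKO livers and 11.9, 5.12 and 5.61 RPKM in control livers. The groups overlapped because control replicate 1 was as high as the highest dKO library. Over the 12 alternatives the Klf10 log2 change lay between 0.05 and 0.65, with limma adjusted p between 0.0871 and 0.923. Its log2 change was 0.31 ± 0.30 (SE; 95% interval -0.38 to 1.00; limma adjusted p = 0.471), and without control replicate 1 it was 0.65 (limma adjusted p = 0.0871).

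Klf13, a Sin3A-recruiting factor of the Klf9 branch first described in T cells, missed the threshold. It had 9.58, 7.06 and 12.1 RPKM in dKO livers and 6.07, 7.87 and 6.11 RPKM in control livers. The groups overlapped, since dKO replicate 2 lay below control replicate 2. This amounted to a log2 change of 0.44 ± 0.19 (SE; 95% interval 0.01 to 0.87), with an unadjusted p of 0.0461 and a limma adjusted p of 0.125. Without dKO replicate 2 it was 0.62 with a limma adjusted p of 0.0487, which brought the members called to 3, and over the 12 alternatives the adjusted p lay between 0.0487 and 0.409.

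Klf2, an endothelial factor induced by blood flow, had 3.37, 3.59 and 4.04 RPKM in dKO livers and 2.57, 2.87 and 3.21 RPKM in control livers. The groups did not overlap, but the gap between them was narrow. Its log2 difference of 0.27 ± 0.14 (SE; 95% interval -0.05 to 0.58; limma adjusted p = 0.19) was close to the median of all genes, and it was -0.07 after quantile normalization. Klf3, which encodes a repressor that recruits CtBP, had 13.9, 14.9 and 17.3 RPKM in dKO livers and 21.2, 12.3 and 13.6 RPKM in control livers. Control replicate 1 was the highest of all libraries and the other controls lay below the dKO range. The log2 change was 0.00 ± 0.20 (SE; 95% interval -0.45 to 0.45; limma adjusted p = 0.997), 0.23 without control replicate 1 and -0.24 after median-ratio scaling.

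Klf9 and Klf15 had the highest levels of the family in control livers. Klf9, which is induced by glucocorticoids and thyroid hormone, had 22.7, 26.1 and 17.4 RPKM in dKO livers and 22.1, 21.2 and 22.0 RPKM in control livers. The dKO libraries spread on both sides of the controls, which lay close together. The log2 change was 0.00 ± 0.16 (SE; 95% interval -0.36 to 0.35; limma adjusted p = 0.997). It was -0.24 after median-ratio scaling and -0.21 after quantile normalization, and was called in neither.

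Klf15, a regulator of amino acid breakdown and gluconeogenesis, had 23.9, 24.0 and 21.6 RPKM in dKO livers and 24.2, 27.8 and 28.4 RPKM in control livers. Each dKO library lay below each control library, though by only a small margin to control replicate 1. Its log2 difference was -0.20 ± 0.12 (SE; 95% interval -0.48 to 0.08; limma adjusted p = 0.259). After median-ratio scaling it was -0.44 with a limma adjusted p of 0.06, and over the 12 alternatives the adjusted p lay between 0.06 and 0.514.

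**Figure D3:**
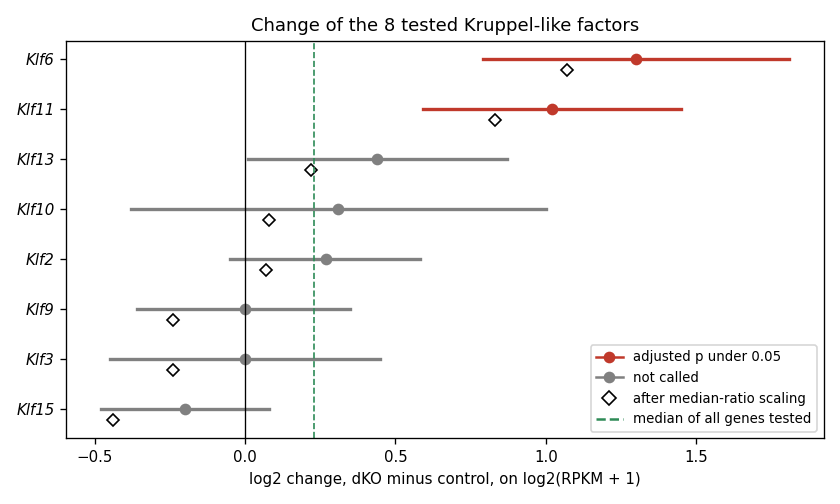
Log2 change (dKO minus control, log2(RPKM + 1)) of the 8 tested members with 95% intervals; red marks a limma adjusted p under 0.05 and grey the others. Open diamonds give the change after median-ratio scaling and the dashed line the median of all tested genes, 0.23. Klf6 (1.30) and Klf11 (1.02) lie to the right of the line and Klf15 (-0.20) to the left.

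Klf4 and Klf5 lay below the filter. Klf4, known from endothelium and epithelial differentiation, had 0.616, 0.647 and 0.997 RPKM in dKO livers and 0.663, 0.823 and 0.533 RPKM in control livers. The ranges overlapped, at an estimated 40 to 74 reads in dKO and 33 to 62 reads in control libraries. In the fit without a filter its log2 change was 0.06 ± 0.13 (SE; 95% interval -0.26 to 0.38; limma adjusted p = 0.776).

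Klf5 had 0.106, 0.0272 and 0.689 RPKM in dKO livers and 0.0669, 0 and 0.0554 RPKM in control livers. The highest value was in dKO replicate 3, at an estimated 57 reads, against 8 and 2 reads in the other dKO libraries and 4, 0 and 4 reads in the controls. The listed 0 in control replicate 2 allows up to 0.0361 RPKM, which is 3 reads on a transcript of 3352 bases, counting error only. Without a filter the log2 change was 0.26 ± 0.18 (SE; 95% interval -0.17 to 0.68; limma adjusted p = 0.373). The same library was the highest for biliary genes: Spp1 had 454, 306 and 910 RPKM and Sox9 had 13.1, 11.5 and 28.5 RPKM in the dKO libraries. Their part in the Klf5 level was not tested. In bulk tissue, a change in the number of cells of a type and a change in RNA per cell cannot be told apart.

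By mean level the dKO order was Klf15 (23.2 RPKM), Klf9 (22.1), Klf6 (18.5), Klf3 (15.4), Klf13 (9.58), Klf10 (9.14), Klf11 (5.54), Klf2 (3.67), Klf4 (0.753) and Klf5 (0.274). In control livers it was Klf15 (26.8 RPKM), Klf9 (21.8), Klf3 (15.7), Klf10 (7.55), Klf6 (6.84), Klf13 (6.68), Klf2 (2.88), Klf11 (2.24), Klf4 (0.673) and Klf5 (0.0407). Klf6 ranked 3 of 10 in dKO and 5 of 10 in control livers, and Klf11 stood above Klf2 in dKO and below it in control livers. In dKO livers, neighbours overlapped within the first 4 genes, between Klf13 and Klf10, and between Klf4 and Klf5. In control livers they overlapped among Klf10, Klf6 and Klf13 and between Klf2 and Klf11.

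The 10 transcripts together summed to 102, 105 and 118 RPKM in dKO livers and 96.2, 89.8 and 87.7 RPKM in control livers. All dKO sums lay above the control sums, with means of 108 ± 8.38 RPKM in dKO and 91.2 ± 4.43 RPKM in control livers (SD, n = 3 each). On the unscaled values all tested genes had a median log2 change of 0.23, which was 0.02 after median-ratio scaling. The sums were not rescaled, so they do not separate a change of the family from that shift. Klf6 made up 14.4, 15.1 and 21.3% of the sum in dKO livers and 5.96, 9.80 and 6.83% in control livers. Klf15 made up 23.4, 22.9 and 18.3% in dKO livers and 25.2, 31.0 and 32.4% in control livers. Klf11 made up 5.15, 4.47 and 5.69% in dKO livers and 1.69, 3.26 and 2.49% in control livers. The ranges of these shares were separate, higher in dKO for Klf6 and Klf11 and lower for Klf15. The shares are bound to sum to 100%. The highest dKO library was replicate 3 for 8 of the 10 members, and for Klf9 and Klf15 it was the lowest. On the first principal component of the log2 values (67.3% of variance) that library scored 49.0, against 20.3 and 19.2 for the other dKO libraries and -35.7 to -25.4 for the controls.

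**Figure D4:**
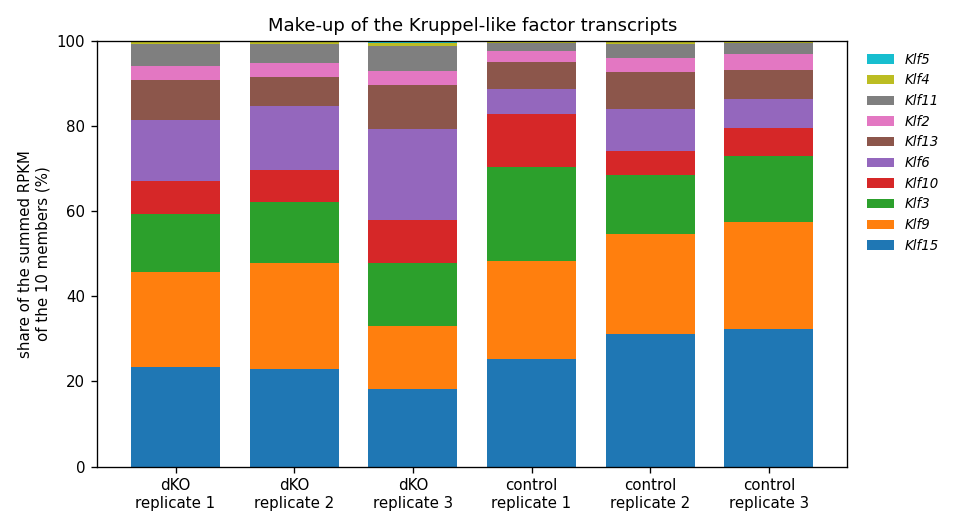
Share of each Kruppel-like factor in the summed RPKM of the 10 members (%), with 1 stacked bar per library, dKO libraries left of controls. The Klf6 segment is 14.4 to 21.3% in dKO and 5.96 to 9.80% in control libraries, and the Klf15 segment is 18.3 to 23.4% in dKO and 25.2 to 32.4% in control libraries. The Klf11 segment is 4.47 to 5.69% in dKO and 1.69 to 3.26% in control libraries.

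Related pairs were compared by their ratio within each library, over 3 ratios. Klf11 to Klf10 was 0.668, 0.61 and 0.563 in dKO livers and 0.136, 0.572 and 0.389 in control livers (exact two-sided permutation p = 0.2, Benjamini-Hochberg 0.3). Klf6 to its close relative Klf7 was 5.59, 7.01 and 5.09 in dKO livers and 2.07, 5.18 and 3.49 in control livers (exact permutation p = 0.2, adjusted 0.3). Klf13 to Klf9 was 0.422, 0.27 and 0.697 in dKO livers and 0.274, 0.371 and 0.278 in control livers (exact permutation p = 0.4, adjusted 0.4). All 3 ratios overlapped between the groups, and 3 libraries against 3 cannot give an exact p below 0.1. Klf6 and Klf11 were called on the same values, and Klf7 was named after its values were seen, so these p-values are descriptive.

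The other KLF and SP genes gave no call. Of 16 such genes, 7 passed the filter (Klf7, Klf12, Klf16, Sp1, Sp2, Sp3 and Sp4), with a median log2 change of 0.36; 0 were called by limma, and at an unadjusted p under 0.05 there were 2, Sp1 and Sp3. Klf7 had 2.64, 2.25 and 4.92 RPKM in dKO livers and 2.77, 1.70 and 1.72 RPKM in control livers (limma adjusted p = 0.214). Sp3, an abundant SP factor, had 16.2, 16.6 and 18.7 RPKM in dKO livers and 13.8, 14.6 and 13.3 RPKM in control livers (limma adjusted p = 0.11). The groups of Sp3 did not overlap and those of Klf7 did. Sp8 and Sp9 were listed at 0 in every library. Of 11 cofactor and ubiquitin ligase genes of KLF proteins, Ctbp1, the corepressor of KLF3, was the 1 called higher and 0 were called lower (0 lower also at an unadjusted p under 0.05; 1 lower after median-ratio scaling). It averaged 17.8 ± 3.06 RPKM in dKO and 12.3 ± 1.19 RPKM in control livers (SD, n = 3 each; log2 change 0.49, limma adjusted p = 0.0469), and the call was lost in 11 of 12 alternatives. Ctbp2, Sin3a, Fbxw7 and Wwp1, the last a ubiquitin ligase of KLF2 and KLF5, were not called (limma adjusted p = 0.376, 0.878, 0.434 and 0.506).

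Immediate early genes, the class to which Klf6 and Klf10 also belong, were called higher in 9 of 15 tested and lower in 0 (median log2 change 0.85; 0 lower at an unadjusted p under 0.05). Jun averaged 24.1 ± 9.30 RPKM in dKO and 6.06 ± 1.48 RPKM in control livers, and Btg2 averaged 13.0 ± 5.04 RPKM in dKO and 4.08 ± 0.471 RPKM in control livers (SD, n = 3 each; limma adjusted p = 0.00554 and 0.00652). Both kept their call in all 12 alternatives. Fosl2 (3.66 ± 1.22 RPKM in dKO and 1.53 ± 0.02 RPKM in control livers, limma adjusted p = 0.0189) lost its call without control replicate 1 or 3 and after quantile normalization. Egr1 (limma adjusted p = 0.0277) lost its call without control replicate 1 or 2 and after quantile normalization. Fos (limma adjusted p = 0.0469) lost its call in 9 of 12 alternatives, among them all 5 that left out a library other than dKO replicate 2. At 1 of the 9 called genes the control mean was under 1 RPKM, so that it passed the filter only through its dKO level. The list had 4 calls without control replicate 1 or without control replicate 3, 5 without dKO replicate 3 and 2 after quantile normalization.

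TGF-beta ligands, receptors, SMADs and responsive genes, the pathway that induces Klf10 and Klf11, were called higher in 5 of 11 and lower in 0 (median log2 change 0.58; 0 lower at an unadjusted p under 0.05). Smad3, a transducer of the pathway, averaged 6.58 ± 1.66 RPKM in dKO and 3.26 ± 0.561 RPKM in control livers (limma adjusted p = 0.0182). The ligand gene Tgfb2 averaged 2.06 ± 0.834 RPKM in dKO and 0.558 ± 0.174 RPKM in control livers, and the feedback inhibitor Pmepa1 averaged 3.67 ± 1.79 RPKM in dKO and 1.10 ± 0.484 RPKM in control livers (SD, n = 3 each; limma adjusted p = 0.02 and 0.0268). Tgfb2 passed the filter only through its dKO level and was not tested without dKO replicate 3, and the Pmepa1 call was lost in 5 of 12 alternatives (without a filter, after quantile normalization, and without dKO replicate 3, control replicate 1 or control replicate 2). Dropping dKO replicate 3 left 2 calls, and dropping control replicate 1, 2 or 3 left 0, 2 or 3 calls. There were 3 after median-ratio scaling or without a filter, and 0 after quantile normalization.

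Genes of the glucocorticoid response, to which Klf9 and Klf15 also belong, went in both directions, with 3 higher and 5 lower of 12 (median log2 change -0.45). Fkbp5, a cochaperone of the receptor, averaged 19.8 ± 4.05 RPKM in dKO and 8.52 ± 0.935 RPKM in control livers (limma adjusted p = 0.0039). Cdkn1a, a cell cycle inhibitor, averaged 35.2 ± 4.75 RPKM in dKO and 9.78 ± 1.35 RPKM in control livers (limma adjusted p = 0.000547). Mt1, a metallothionein, averaged 359 ± 83.6 RPKM in dKO and 2059 ± 966 RPKM in control livers (limma adjusted p = 0.00818). The receptor gene Nr3c1 averaged 20.9 ± 0.527 RPKM in dKO and 23.0 ± 1.41 RPKM in control livers and was not called (SD, n = 3 each; limma adjusted p = 0.431). Lower calls numbered 2 without dKO replicate 1, dKO replicate 2 or control replicate 3, and also without a filter or after quantile normalization. Tsc22d3 was not called either, with 26.4, 27.5 and 21.1 RPKM in dKO livers and 53.7, 33.4 and 25.4 RPKM in control livers (limma adjusted p = 0.175). The members of this list had no common direction, and Klf9 and Klf15 themselves passed no test. The labels give neither the sex of the mice nor the time of collection.

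Of 6 thyroid hormone genes, 1 was higher and 2 were lower (median log2 change -0.52). Gpd2 averaged 9.01 ± 1.21 RPKM in dKO and 18.5 ± 3.58 RPKM in control livers, and Thrsp averaged 17.2 ± 7.21 RPKM in dKO and 44.9 ± 9.64 RPKM in control livers (SD, n = 3 each; limma adjusted p = 0.00818 and 0.0149). Thra, a receptor gene, was higher (limma adjusted p = 0.0339) but lost its call in 7 of 12 alternatives, among them those without dKO replicate 1, dKO replicate 3, control replicate 1 or control replicate 3. Thrb was not called (limma adjusted p = 0.646), and Thrsp lost its call without control replicate 1.

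Clock genes, whose proteins include E-box binding factors, were called higher in 2 of 14 and lower in 0 (0 lower at an unadjusted p under 0.05). They were Npas2, a partner of BMAL1, with a mean ± SD of 4.84 ± 1.60 RPKM in dKO and 1.60 ± 0.30 RPKM in control livers, and the output gene Tef, with 10.4, 9.76 and 9.87 RPKM in dKO and 6.46, 6.71 and 6.97 RPKM in control libraries (n = 3 each; limma adjusted p = 0.0125 for Npas2 and 0.0172 for Tef). The 2 calls were 14.3% of the list, below the 17.8% of all tested genes called higher. The median log2 change of the list was 0.11, against 0.23 over all tested genes. There were 0 calls without control replicate 1, 1 without dKO replicate 1 or control replicate 3, and 3 without control replicate 2. Median-ratio scaling left 1 call and quantile normalization left 0. Arntl, the gene of BMAL1, was not called (limma adjusted p = 0.227).

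Enzymes of amino acid breakdown, the urea cycle and gluconeogenesis, a program known to depend on KLF15, were lower in 7 of 16 and higher in 1 (median log2 change -0.80). Ass1, of the urea cycle, averaged 79.9 ± 23.9 RPKM in dKO and 240 ± 30.9 RPKM in control livers. Tat, of tyrosine breakdown, averaged 148 ± 43.2 RPKM in dKO and 356 ± 46.1 RPKM in control livers (SD, n = 3 each; limma adjusted p = 0.00407 for Ass1 and 0.0101 for Tat). Gpt2, a mitochondrial alanine aminotransferase, went the other way, with 75.8, 67.1 and 85.1 RPKM in dKO and 28.0, 30.8 and 33.8 RPKM in control livers (limma adjusted p = 0.00166). These 3 kept their calls in all 12 alternatives, and Prodh was not called (limma adjusted p = 0.356). Lower calls numbered 4 without dKO replicate 3, control replicate 1 or control replicate 3, and higher calls numbered 2 without control replicate 2.

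**Figure D5:**
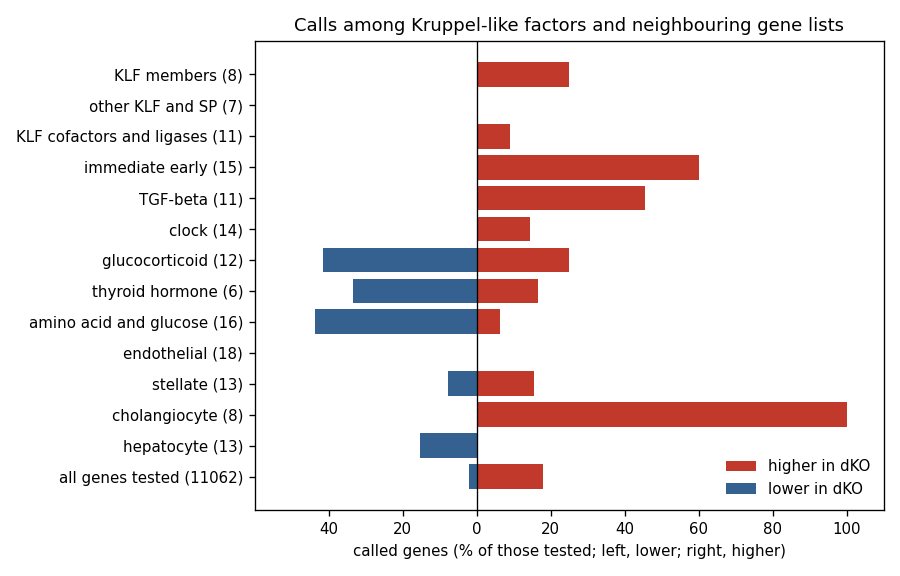
Share of tested genes called higher (right, red) or lower (left, blue) in dKO, in % of the genes tested, whose number is in brackets, for the members, gene lists and all tested genes. The members have 2 higher calls of 8 (25.0%) against 17.8% of all genes. The cholangiocyte list has all 8 called higher, and the amino acid and glucose list has 7 of 16 lower.

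Markers of some cell types moved with these groups, and their part in the Klf values was not tested. All 8 tested cholangiocyte and progenitor markers were called higher (5 without control replicate 1), and 2 of them passed the filter only through their dKO level. The 11 genes summed to 368 to 1035 RPKM in dKO and 39.4 to 93.0 RPKM in control livers. Spp1 alone had 454, 306 and 910 RPKM in dKO and 20.9, 18.7 and 64.7 RPKM in control livers. The difference between these sums therefore rests largely on Spp1. Krt19, a bile duct keratin, averaged 3.18 ± 1.47 RPKM in dKO and 1.29 ± 0.319 RPKM in control livers (limma adjusted p = 0.0473), a call lost in 8 of 12 alternatives. Prom1 averaged 26.0 ± 6.34 RPKM in dKO and 7.77 ± 1.87 RPKM in control livers (limma adjusted p = 0.00295). Sox9 averaged 17.7 ± 9.39 RPKM in dKO and 1.93 ± 0.906 RPKM in control livers (SD, n = 3 each; limma adjusted p = 0.00519). Stellate and mesenchymal markers summed to 220 to 370 RPKM in dKO and 199 to 215 RPKM in control livers, with 2 higher and 1 lower of 13; leaving out dKO replicate 2 left 3 higher calls and any other library 1, and leaving out any dKO library or control replicate 1 left 0 lower. Both scalings and the fit without a filter left 1 higher call (0 lower without a filter), and there were 3 without robust moderation and 4 with a replicate block. Rgs5, a pericyte gene, averaged 22.7 ± 5.44 RPKM in dKO and 8.51 ± 1.61 RPKM in control livers (SD, n = 3 each; limma adjusted p = 0.00447), and Timp1 and Hand2 were the other calls (limma adjusted p = 0.0374, higher, and 0.035, lower). Timp1 passed the filter only through its dKO level, as it averaged 1.87 ± 1.22 RPKM in dKO and 0.141 ± 0.111 RPKM in control livers, and its call was lost in 5 of the 9 alternatives in which it was tested. Hand2 lost its call in 5 of 12.

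Endothelial markers, beside which Klf2 and Klf4 belong, were called in 0 of 18 in either direction by limma (also 0 at an unadjusted p under 0.05; 1 higher without control replicate 2), with sums of 223 to 243 RPKM in dKO and 209 to 221 RPKM in control livers. Cdh5, the endothelial cadherin, had 15.6, 16.1 and 18.1 RPKM in dKO livers and 15.1, 14.1 and 12.2 RPKM in control livers (limma adjusted p = 0.182). Macrophage markers gave 2 higher calls of 12, Vsig4 and Lyz2, and 0 lower (higher calls numbered 9 without control replicate 2, 1 without control replicate 3 and 1 after quantile normalization), with sums of 328 to 460 RPKM in dKO and 197 to 415 RPKM in control livers. At an unadjusted p under 0.05, 4 macrophage markers were higher and 1 was lower, and 1 was called lower with a pseudocount of 0.1, without robust moderation, after either scaling and without control replicate 3. Lymphocyte and neutrophil markers were called in 0 of 3 tested and erythroid markers in 0 of 3 by limma (1 and 0 at an unadjusted p under 0.05; 1 of each list without control replicate 2). Hepatocyte markers, which check the tissue, summed to 58389 to 67715 RPKM in dKO and 61929 to 80364 RPKM in control livers, with Cyp2e1 and Ttr lower of 13 (limma adjusted p = 0.0118 and 0.0413) and 0 higher. At an unadjusted p under 0.05, 3 hepatocyte markers were lower and 2 were higher, and 1 was called higher without dKO replicate 3. Without control replicate 1 neither was called, and Ttr lost its call in 9 of 12 alternatives. Alb had 37822, 37626 and 34054 RPKM in dKO livers and 46467, 36157 and 46961 RPKM in control livers, which overlapped.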

How the data were processed

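RNA-seq values of 6 mouse liver libraries were used, 3 dKO and 3 control. Read alignment, counting and conversion to RPKM were done before the files were deposited. Per the submitters' processing notes the genome build was mm9. The aligner, counting tool, strand setting and annotation are not given in the sources used here. The deposited values were taken as RPKM, though no unit is named with them. Of 215 to 438 low values per library, at symbols with a single annotated transcript, 72.3 to 80.0% lay within 0.15 of a whole read. The estimated depth of each library was chosen to make this share largest. Over all depths tried, the median share was 21.4 to 24.2%. These depths set the precision of low values. GENCODE M21 transcript lengths gave the estimated reads. Klf3 and Klf13 overlap annotated genes on the opposite strand, and Klf3 and Klf9 overlap genes on the same strand, so their values may hold reads of these neighbours.

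The test was limma (version 3.58.1, R version 4.3.3) on log2(RPKM + 1), using trended and robust moderation and no block, for the 11062 of 22068 genes whose mean reached 1 RPKM. P-values were adjusted by Benjamini-Hochberg over all tested genes. Simulated data with known changes in a small set of genes were run through the fit first. They had independent noise and no general shift between the groups. This checked the code only and does not measure how reliable the calls in these libraries are. Promoter windows came from RefSeq (GRCm38.p6), and motifs, ratios and figures used Python 3.11.15, scipy 1.17.1 and matplotlib 3.10.9.

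The members and lists were chosen with earlier results of these data known. By rule, named genes were all members, other KLF or SP genes with a call, the 3 called genes of lowest p in each list, and a set of marker and response genes. No other KLF or SP gene was called with the filter, so all of those named here were named after their values were seen. Stk3 and Stk4 were named because they are the targeted genes. The 12 alternatives were a pseudocount of 0.1, no filter, no robust moderation, median-ratio scaling, quantile normalization, a replicate block and each of the 6 libraries left out.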

Additional observations from a re-analysis of the deposited data

How the results depend on the processing

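Klf6 and Klf11 were the 2 members called in all 12 alternatives; Klf13 joined them without dKO replicate 2, so the count of members called higher ran between 2 and 3 when libraries were left out. Over all genes, 949 were called higher and 535 lower after median-ratio scaling, 727 and 554 after quantile normalization, and 145 lower without a filter, against 1965 and 240. Leaving out 1 library gave 763 to 1992 higher and 90 to 241 lower calls, where dropping dKO replicate 2 gave 151 lower, dKO replicate 3 gave 126, control replicate 1 gave 90 and control replicate 3 gave 116. The cause of these shifts was not tested.

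Members near 0 changed sign. Klf2 was -0.07 (log2) after quantile normalization. Klf3 was -0.24 after median-ratio scaling and -0.23 after quantile normalization, and -0.14 to 0.23 with a library left out. Klf9 was -0.13 to 0.15 with a library left out. Among other genes, under median-ratio scaling and then quantile normalization, Klf12 was -0.20 and -0.22, Pecam1 -0.13 and -0.14, Fbxw7 -0.01 and -0.13, Sin3a -0.19 and -0.23, and Stk4 -0.08 and -0.16. Ctbp2 was -0.07 and Alb 0.00 after quantile normalization, and Per1 was 0.01 with a pseudocount of 0.1. With a library left out, Klf12 ran over -0.03 to 0.06, Per1 -0.21 to 0.31, Pecam1 -0.02 to 0.24 and Sin3a -0.04 to 0.10.

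Same-numbered libraries showed no shared deviation from their group means, with correlations of -0.08, -0.10 and -0.01. With 3 libraries per group this cannot show whether they were collected or prepared in pairs. With a replicate block, 1513 genes were called higher and 202 lower, and the members called were again 2 higher and 0 lower. Depth limits Klf4 and Klf5, whose levels rest on few reads.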

Other observations

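Sp5, an SP factor known as a Wnt target, lay below the filter and was named after its values were seen. It had 0.218, 0.157 and 0.215 RPKM in dKO livers and 0.495, 0.512 and 0.387 RPKM in control livers. The groups did not overlap, and in the fit without a filter the log2 change was -0.29 ± 0.07 (SE; limma adjusted p = 0.0449). Klf1, the erythroid member of the family, had 0.298, 0.459 and 0.134 RPKM in dKO livers and 0.451, 1.06 and 0.934 RPKM in control livers. Its groups overlapped, since control replicate 1 lay below dKO replicate 2 (log2 change -0.48 without a filter, limma adjusted p = 0.114), and erythroid markers summed to 98.6 to 169 RPKM in dKO and 114 to 407 RPKM in control livers.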
